A study of Mus musculus with 14 samples.

Results

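The CC chemokine cluster on mouse chromosome 11 was examined in ChIP-seq peak lists from 3T3-L1, a cultured line of mouse preadipocytes with the capacity to become adipocytes. Its members are 6 of 21866 protein-coding genes, Ccl2, Ccl7, Ccl11, Ccl12, Ccl8, and Ccl1, taken by name in their order along the chromosome. All listed peaks were counted in a window reaching 50000 bp beyond the outermost genes (chr11:81985571-82229812 in GRCm38, 244.2 kb). The window also holds Gm17268, which lies antisense over Ccl2, so a peak at Ccl2 lies in both genes. Cells were differentiated to adipocytes and left untreated (control) or exposed for 1 h to forskolin (FSK, an activator of adenylyl cyclase that raises cAMP, 10 µM), to TNFα, or to FSK and TNFα together (FSK/TNFα). Chromatin was precipitated for CRTC2, for the NF-κB subunit p65, or for H3AcK27. With 1 library per combination, treatments cannot be compared against replicate error. No p-value was computed, and all intervals below are 95% intervals that cover counting error only. The cells carried no stated genetic change, and all groups came from the same clonal line.

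CC chemokines are small secreted proteins that draw leukocytes to a tissue through G protein-coupled receptors. CCL2, also called MCP-1, recruits monocytes through the receptor CCR2 and is released by adipocytes and preadipocytes in inflamed fat. CRTC2 is a coactivator of CREB that enters the nucleus when cAMP is raised, NF-κB p65 enters it when TNFα signals, and H3AcK27 marks active promoters and enhancers. Libraries held between 9832884 and 31807394 tags, and the H3AcK27 library under FSK was the shallowest. Signal is given as normalized tags, the tags in a peak per 10000000 tags of the library. A peak entered a list only above the thresholds for enrichment over the input and, for CRTC2 and p65, over the surrounding 10 kb, so a locus that is not listed has no value. Control and TNFα libraries were compared with the input of untreated cells, and FSK and FSK/TNFα libraries with the input of FSK-treated cells.

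The adipocyte label was not clearly borne out by acetylation. H3AcK27 regions covered the start sites of 3 of 7 adipocyte markers in the control and under TNFα, and of 2 of 7 under FSK and FSK/TNFα. Over all genes the shares were 49.5% in the control and under TNFα, 43.8% under FSK, and 46.8% under FSK/TNFα. The adipocyte markers thus lay near or below the share of all genes. Adipoq, Plin1, Cebpa, and Cd36 had no listed region within 5 kb in any library. Preadipocyte or fibroblast markers were covered in 5 of 5 cases except under FSK, where Dlk1 was not (4 of 5). Macrophage markers were covered in 1 or 2 of 6 cases, with none at Adgre1, Itgam, Ptprc, or Lyz2, and endothelial markers in 0 of 4.

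The sequences that carry most p65 signal in the cluster lie upstream of Ccl2. They are shown with the promoter of Ccl8 (RefSeq, GRCm38.p6), the only one of the 3 promoters with an entry in the sequence table, those of Ccl12, Ccl8, and Ccl1, that a CRTC2 peak overlapped. Capitals mark matches to a motif: in the first sequence to a wider NF-κB consensus, C/EBP, and the CRE core, in the second to the wider NF-κB consensus, and in the third to NF-κB. The first 3 are the merged extents of all CRTC2 and p65 peaks at a locus, read on the plus strand of GRCm38.p6.

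Ccl2, 28.6 kb upstream (chr11:82006830-82007056): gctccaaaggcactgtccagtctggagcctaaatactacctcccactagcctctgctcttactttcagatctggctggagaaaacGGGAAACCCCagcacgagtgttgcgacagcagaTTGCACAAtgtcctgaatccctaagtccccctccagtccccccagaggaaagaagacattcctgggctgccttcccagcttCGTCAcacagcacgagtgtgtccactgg
Ccl2, 19.0 kb upstream (chr11:82016416-82016658): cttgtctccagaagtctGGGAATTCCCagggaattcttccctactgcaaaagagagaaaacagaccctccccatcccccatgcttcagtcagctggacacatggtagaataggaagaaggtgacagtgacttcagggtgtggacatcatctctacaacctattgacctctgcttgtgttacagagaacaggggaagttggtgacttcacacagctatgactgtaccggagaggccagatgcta
Ccl2, 2.37 kb upstream (chr11:82033094-82033304): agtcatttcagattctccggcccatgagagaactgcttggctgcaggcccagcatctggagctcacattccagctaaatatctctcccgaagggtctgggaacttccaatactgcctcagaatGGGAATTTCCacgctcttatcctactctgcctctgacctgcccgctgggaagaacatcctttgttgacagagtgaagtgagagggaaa
Ccl8 promoter (chr11:82114935-82115234): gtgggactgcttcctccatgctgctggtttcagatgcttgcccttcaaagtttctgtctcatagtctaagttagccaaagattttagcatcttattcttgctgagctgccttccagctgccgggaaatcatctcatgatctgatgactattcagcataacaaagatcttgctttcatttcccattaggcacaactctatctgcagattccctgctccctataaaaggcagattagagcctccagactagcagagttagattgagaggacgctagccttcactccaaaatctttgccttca

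CRTC2 in every list, and p65 in the libraries with TNFα, were listed more densely in the cluster than over the genome. No p65 peak was listed in the window in the control or under FSK. CRTC2 had 5 peaks in the window in the control, 8 under FSK, 10 under TNFα, and 10 under FSK/TNFα. These numbers correspond to 20.5, 32.8, 40.9, and 40.9 peaks per Mb, beside 1.90, 4.31, 7.16, and 5.20 over the genome. p65 had 0 peaks in the control and under FSK, beside genome densities of 0.0785 and 1.09 per Mb. It had 4 in each library with TNFα, or 16.4 per Mb beside genome densities of 0.882 under TNFα and 1.55 under FSK/TNFα. The control list for p65 was short, with 214 peaks over the genome, so its 0 in the window says little. At the FSK density of 1.09 per Mb, few or no peaks would be met in a window of 244.2 kb, so the 0 under FSK also says little. The FSK list for p65 was longer, with 2969 peaks. Of these, 16.1% lay in H3AcK27 of the same treatment, beside 17.8% in the control and 39.6% under TNFα. Longer lists hold more peaks: when each CRTC2 list was limited to its best-scored peaks, as many as the shortest list had, the window held 5, 4, 6, and 8 CRTC2 peaks, and the same limit for p65 left 3 under TNFα and 2 under FSK/TNFα. H3AcK27 covered 97.8 kb of the window in the control, 61.4 kb under FSK, 95.8 kb under TNFα, and 82.4 kb under FSK/TNFα. In percent of the window that was 40.1, 25.1, 39.2, and 33.7, beside 4.18, 2.68, 4.05, and 3.04 of the genome. No matched reference window was drawn, so these densities are a description. The CXC chemokine cluster on chromosome 5, in a window of 246.6 kb, held 1, 10, 10, and 11 CRTC2 peaks and 0, 2, 6, and 12 p65 peaks in the same order of treatments.

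**Figure D1:**
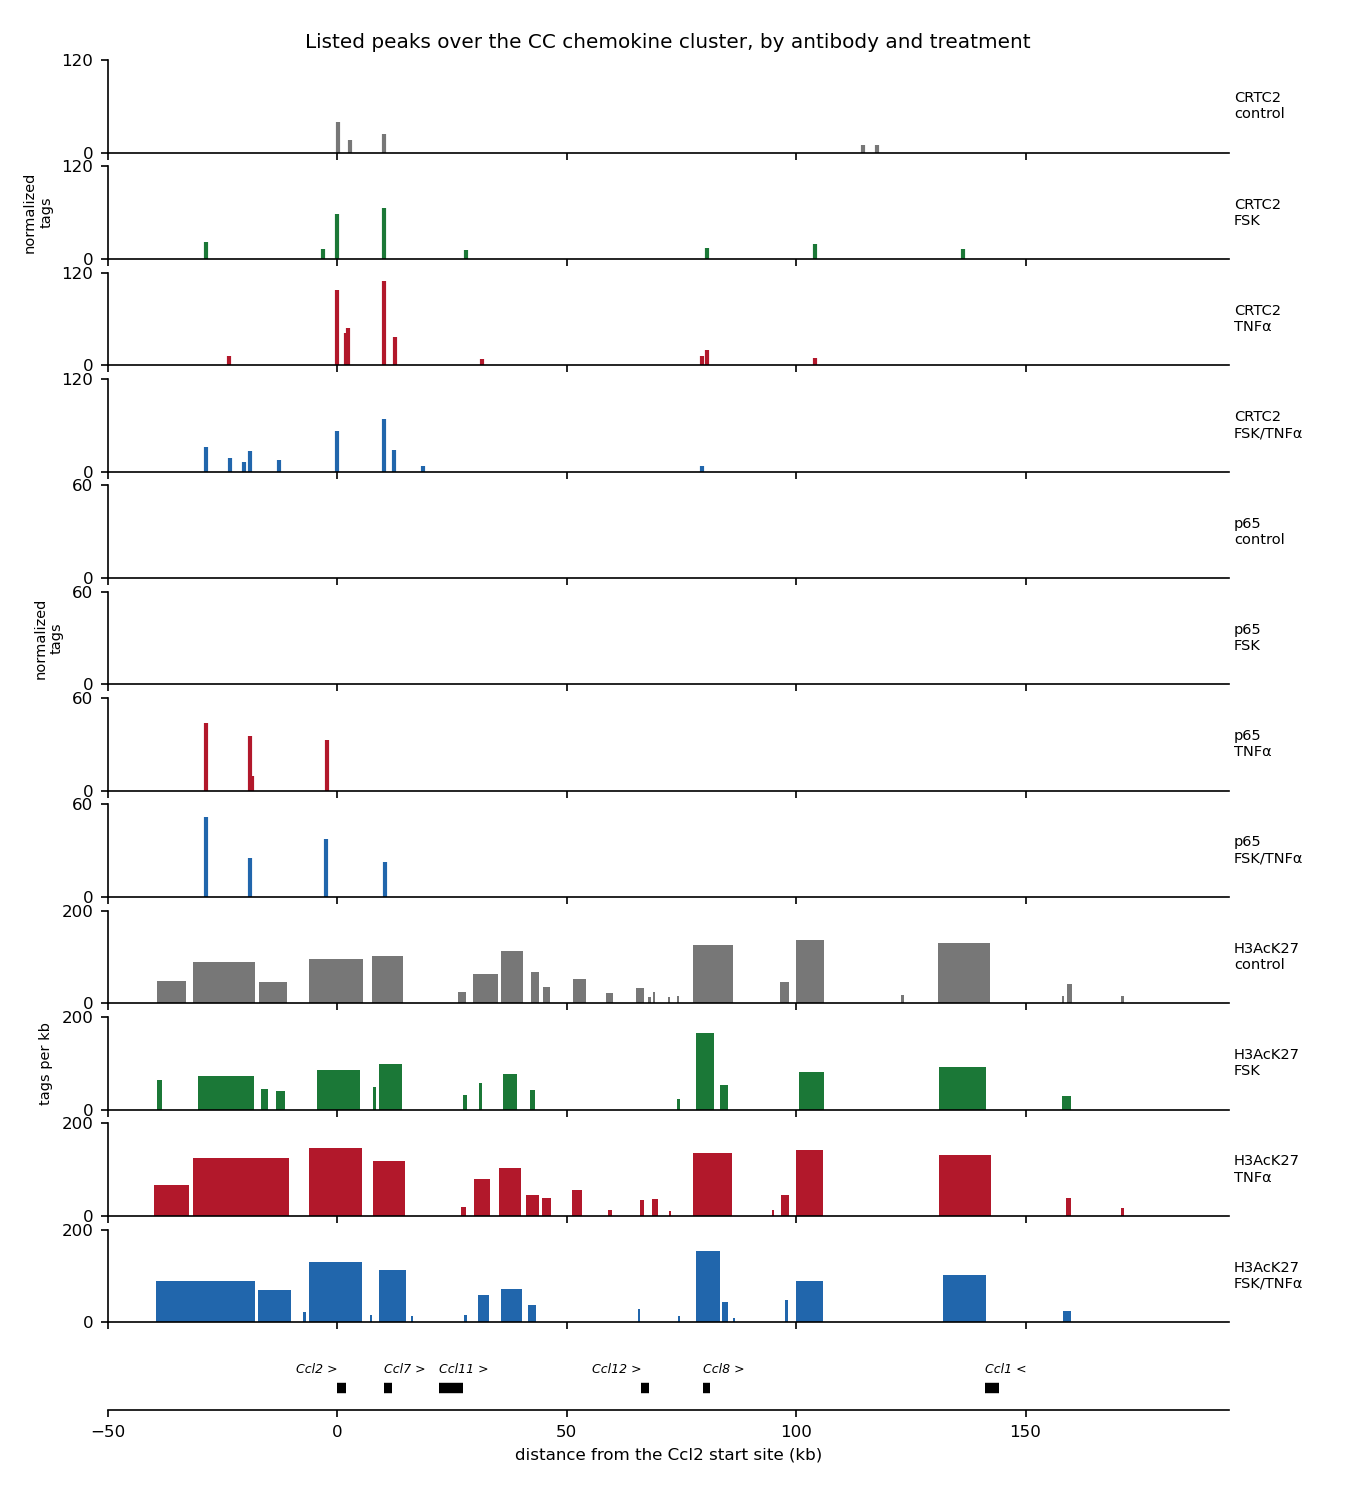
Listed peaks over the CC chemokine cluster by distance from the Ccl2 start site (kb), with 1 row for each antibody and treatment. Lines give normalized tags per CRTC2 or p65 peak (axes to 120 and 60), bars give normalized tags per kb of each H3AcK27 region (axis to 200), and black boxes are genes with arrowheads for the strand; p65 peaks appear only in the TNFα and FSK/TNFα rows, from 28.7 kb upstream of Ccl2 to Ccl7.

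The members split into genes with CRTC2 at the start site, Ccl2 and Ccl7, and genes with little or none. Within 5 kb of a start site, a CRTC2 peak midpoint was listed for 2 of 6 members in the control (Ccl2 and Ccl7), where the share over all genes was 14.8%. With FSK it was 3 of 6 (Ccl8 in addition), beside 32.7% of all genes. With TNFα it was 3 of 6 (Ccl2, Ccl7, and Ccl8), beside 45.9%. With FSK/TNFα it was 4 of 6 (Ccl11 in addition), beside 34.9%. With 6 genes these counts lie near the background in the treated libraries, and they describe which members were bound rather than an excess in the cluster. Ccl12 and Ccl1 had no CRTC2 peak within 5 kb in any list. p65 was listed within 5 kb for 0 of 6 members in the control and under FSK, where 0.302% and 2.73% of all genes had a peak. It was listed for 1 of 6 under TNFα (Ccl2), beside 2.32%, and for 2 of 6 under FSK/TNFα (Ccl2 and Ccl7), beside 3.65%. With the narrower limit of 1000 bp upstream to 100 bp downstream, p65 was listed for 0 of 6 in both.

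Ccl2 (ENSMUSG00000035385, chr11:82035571-82037453, plus strand) encodes the monocyte attractant named above. Its CRTC2 peak lay over the start site in all 4 lists, with midpoints from 7 bp upstream to 67 bp downstream. It held 39.2 normalized tags (30.8 to 49.2) in the control, 58.4 (47.3 to 71.3) under FSK, 97.8 (86.3 to 111) under TNFα, and 52.8 (45.1 to 61.4) under FSK/TNFα. The TNFα library stood above the other 3, whose neighbouring intervals overlapped. The ratio to control was 1.49 (1.09 to 2.05) under FSK, 2.49 (1.92 to 3.28) under TNFα, and 1.35 (1.02 to 1.80) under FSK/TNFα. Over all loci listed in both libraries the median ratios were 1.62, 2.11, and 1.53, and the share of loci at 2-fold or more was 32.5%, 54.4%, and 29.4%. Relative to those medians Ccl2 had ratios of 0.917, 1.18, and 0.879, below 1 under FSK and FSK/TNFα, so its start site moved about as the typical CRTC2 locus did in each library. Adding FSK to TNFα gave 0.540 (0.442 to 0.658) of the TNFα signal, beside a genome median of 0.729, and adding TNFα to FSK gave 0.904 (0.700 to 1.17), beside 0.965.

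Ccl7 (ENSMUSG00000035373, chr11:82045712-82047525, plus strand) encodes CCL7 or MCP-3, another ligand of CCR2. A CRTC2 peak again lay over the start site in all 4 lists, with midpoints 25 to 51 bp downstream. It held 24.4 normalized tags (17.8 to 32.5) in the control, 65.7 (53.9 to 79.3) under FSK, 109.2 (96.9 to 123) under TNFα, and 68.2 (59.4 to 77.9) under FSK/TNFα. The control value was below all 3 treated values with no overlap of intervals, and the TNFα value was again the highest. Ratios to control were 2.69 (1.89 to 3.90) under FSK, 4.48 (3.27 to 6.26) under TNFα, and 2.80 (2.03 to 3.94) under FSK/TNFα. These are 1.66, 2.12, and 1.82 times the median ratios given for Ccl2, at percentiles 85.9, 93.7, and 89.7 of the shared loci. In control cells the Ccl2 peak held more tags than the Ccl7 peak, and in the treated libraries the Ccl7 peak held more, with overlapping intervals in each library. Adding FSK to TNFα gave 0.625 (0.522 to 0.748) of the TNFα signal at Ccl7, and adding TNFα to FSK gave 1.04 (0.821 to 1.32). By score the Ccl2 peak ranked 29, 160, 69, and 125 in the 4 lists and the Ccl7 peak ranked 106, 90, 45, and 59. Input signal at these peaks was between 0.735 and 2.94 normalized tags.

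**Figure D2:**
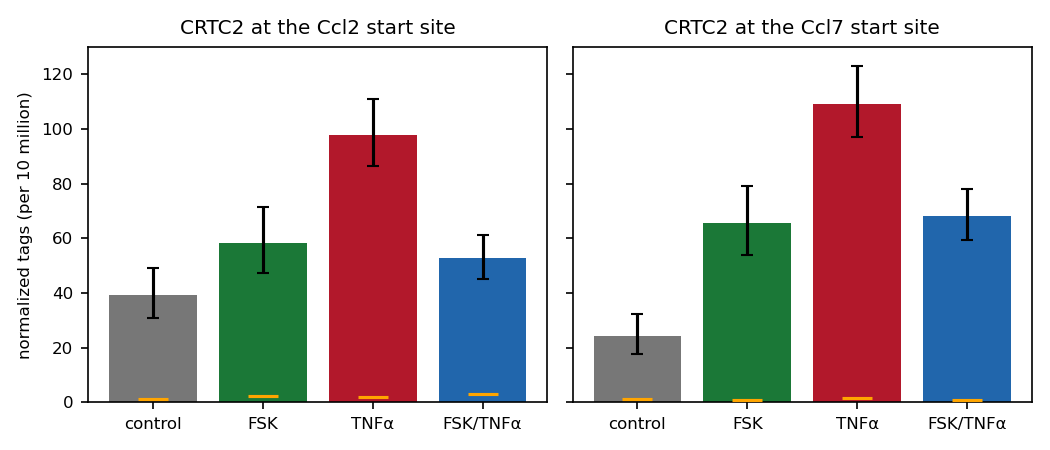
CRTC2 at the start sites of Ccl2 (left) and Ccl7 (right) in normalized tags (per 10000000 tags of the library), 1 bar for each library. Error bars are 95% exact Poisson intervals of the tags and orange marks are the input; the bar for TNFα is the highest at both genes (97.8 and 109.2), and the control bar of Ccl7 (24.4) is the lowest.

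Weaker CRTC2 peaks followed both genes. Those past Ccl2 also lay within 5 kb of a start site of the antisense gene Gm17268, as did the peak at the Ccl2 start site. With TNFα, peaks of 41.9 normalized tags (34.5 to 50.5) and 48.7 (40.7 to 57.9) were listed 1868 and 2400 bp downstream of the Ccl2 start site, the first over the untranslated end of the last exon. Control cells had a peak of 16.9 (11.6 to 23.9) at 2654 bp, which overlapped neither. At Ccl7 a peak of 37.0 (30.1 to 45.1) was listed 2475 bp downstream under TNFα and another of 28.6 (23.0 to 35.1) at 2267 bp under FSK/TNFα. The treated peaks were between 4.21 and 5.0 times above the surrounding 10 kb, close to the 4-fold limit of the lists. Whether signal at these places was present but not listed in the other libraries cannot be read from the files.

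The genes most like Ccl2 in the pattern of CRTC2 signal were not chemokines. Among 2008 other genes with a CRTC2 peak within 1000 bp of a start site in all 4 lists, the smallest distances over the 3 log2 ratios to control belonged to Dennd6b (0.0526), Lias and Rpl9 (0.0867 each, through 1 peak that they share), Acbd3 (0.0897), and Fggy (0.0924). Fggy held 109.1, 166.7, 262.9, and 154.1 normalized tags, a higher level than Ccl2 with the same relative pattern. Ccl7 was place 1696 of the 2008 at a distance of 1.60, and Cxcl5 was place 1684 at 1.57. Both distances are from Ccl2 and do not compare the 2 genes. Their ratios to control under FSK, TNFα, and FSK/TNFα were 2.69, 4.48, and 2.80 at Ccl7 and 1.34, 4.28, and 3.44 at Cxcl5. These places describe 4 libraries and carry no error.

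Ccl11 (ENSMUSG00000020676, chr11:82057823-82062955, plus strand) encodes eotaxin, which draws eosinophils through CCR3. It had no CRTC2 peak at its start site in any list. With FSK/TNFα a peak of 7.86 normalized tags (5.09 to 11.6) was listed 3560 bp upstream, outside every H3AcK27 region. With FSK a peak of 11.6 (6.96 to 18.1) lay 5865 bp downstream of the start site, and under TNFα a peak of 8.31 (5.21 to 12.6) lay 9305 bp downstream, both past the end of the gene. All 3 ranked in the lower part of their lists, at 79.6%, 83.7%, and 84.7% of the list by score.

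Ccl12 (ENSMUSG00000035352, chr11:82101845-82103400, plus strand) encodes MCP-5, a mouse ligand of CCR2. No CRTC2 or p65 locus of the window had Ccl12 as its nearest member. Ccl8 (ENSMUSG00000009185, chr11:82115185-82116799, plus strand) encodes MCP-2. CRTC2 was listed just upstream of its start site under TNFα (12.5 normalized tags, 8.58 to 17.5) and under FSK/TNFα (6.92, 4.33 to 10.5), over the promoter printed above. Another peak, in the Ccl8 intron 975 to 1013 bp downstream, was listed under FSK (14.6, 9.35 to 21.7) and under TNFα (19.3, 14.3 to 25.3) and not under FSK/TNFα. The most distant one, 24.4 kb downstream, held 19.5 (13.3 to 27.5) under FSK and 9.44 (6.11 to 13.9) under TNFα. The ratio of TNFα to FSK at the most distant one was 0.484 (0.276 to 0.845), beside a median of 1.28 over 5622 shared loci, which placed it at percentile 2.61 of them.

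Ccl1 (ENSMUSG00000020702, chr11:82176657-82179812, minus strand) encodes a ligand of CCR8. Its start site had no CRTC2 or p65 peak in any list. Control cells had weak CRTC2 peaks of 9.53 (5.65 to 15.1) and 10.1 normalized tags (6.06 to 15.7) 29.6 and 26.5 kb downstream of the start site, outside H3AcK27 and not listed with any treatment. With FSK a peak of 13.4 (8.39 to 20.3) lay 7.88 kb downstream. The CRTC2 and p65 peaks of the window merged into 25 loci, 22 with CRTC2, 5 with p65, and 2 with both. Of the CRTC2 loci, 2 were in all 4 lists, the start sites of Ccl2 and Ccl7, 5 in 2 lists, and 15 in 1 list. By nearest member, 12 loci belonged to Ccl2, 4 to Ccl7, and 3 each to Ccl11, Ccl8, and Ccl1.

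p65 was concentrated upstream of Ccl2 and not at its start site. The locus 28.6 kb upstream held 43.5 normalized tags (36.0 to 52.1) of p65 under TNFα and 51.7 (42.4 to 62.6) under FSK/TNFα, and ranked 17 of 2404 and 31 of 4221 peaks by score. The locus 19.0 kb upstream held 35.3 (28.6 to 43.2) and 24.9 (18.5 to 32.7) and ranked 19 and 257. The locus 2.37 kb upstream held 32.7 (26.2 to 40.3) and 37.6 (29.7 to 47.0) and ranked 43 and 58. Each of these loci was listed in both libraries with TNFα and in neither of the others, and each had overlapping intervals between them. The ratios of FSK/TNFα to TNFα were 1.19 (0.906 to 1.56), 0.705 (0.491 to 1.00), and 1.15 (0.835 to 1.58), beside a median of 1.31 over 272 shared p65 loci. The locus at 19.0 kb was thus in the low tail of the shared loci (percentile 7.35). A weaker p65 peak of 9.66 (6.31 to 14.2) was listed 18.6 kb upstream under TNFα. With FSK/TNFα a p65 peak of 22.9 (16.9 to 30.5) lay 286 bp downstream of the Ccl7 start site in an intron, and its midpoint was 253 bp from that of the CRTC2 peak, which it did not overlap.

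At the p65 loci CRTC2 was listed only in libraries with FSK. At 28.6 kb upstream CRTC2 was listed under FSK (22.5 normalized tags, 15.8 to 31.0) and under FSK/TNFα (32.4, 26.4 to 39.3), a ratio of 1.44 (0.979 to 2.16), and not in the control or under TNFα. At 19.0 kb CRTC2 was listed under FSK/TNFα (26.1, 20.8 to 32.3). Overlapping CRTC2 and p65 peaks of the same treatment therefore numbered 0 in the control, under FSK, and under TNFα, and 2 under FSK/TNFα, with midpoints 22 and 37 bp apart. Over the genome the same rule found 3, 65, 122, and 476 CRTC2 peaks. They were 0.0578%, 0.553%, 0.625%, and 3.36% of the CRTC2 lists and 1.40%, 2.19%, 5.07%, and 11.3% of the p65 lists. With 4 p65 peaks in the window under TNFα, the 0 overlaps there lie near the genome share. At 2.37 kb no CRTC2 peak overlapped p65, and the nearest CRTC2 midpoint was 2341 bp away under TNFα and 2412 bp under FSK/TNFα, at the Ccl2 start site. Other CRTC2 peaks upstream of Ccl2 lay 23.6 kb away under TNFα (11.7, 7.96 to 16.6) and under FSK/TNFα (17.6, 13.3 to 22.9), 20.3 and 12.8 kb away under FSK/TNFα (12.6 and 14.8), and 3.20 kb away under FSK (12.8). With FSK/TNFα, 5 of the 10 CRTC2 peaks of the window lay upstream of Ccl2, against 0 of 5 in the control. Upstream peaks were also listed under FSK and under TNFα, as given above. The CRTC2 list of the control was the shortest, with 5188 peaks beside 14171 under FSK/TNFα, so these counts come from lists of unequal length.

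**Figure D3:**
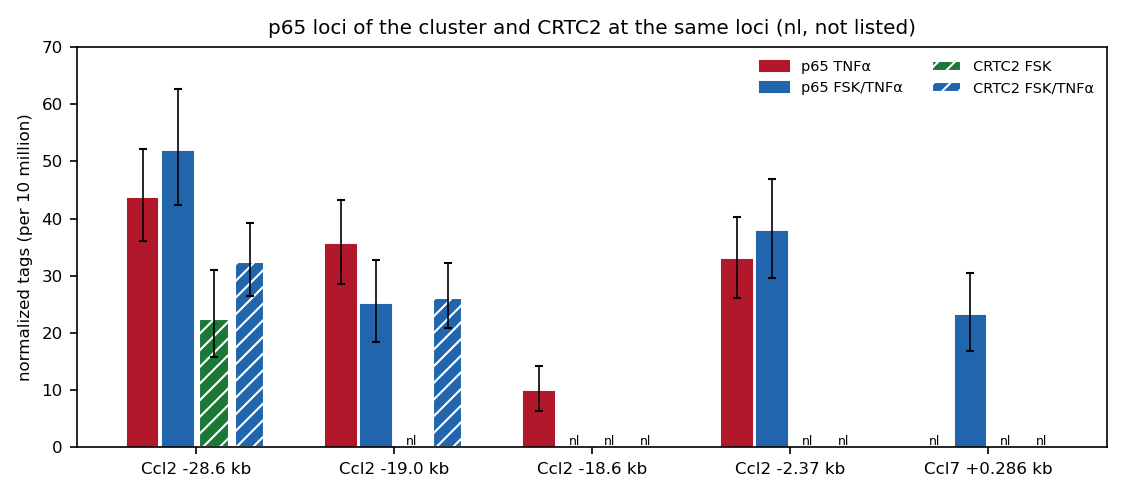
Normalized tags of p65 under TNFα and FSK/TNFα (plain bars) and of CRTC2 under FSK and FSK/TNFα (hatched bars) at the 5 p65 loci, named by distance from the nearest member's start site; error bars are 95% exact Poisson intervals and nl means that no peak was listed. The 3 loci at 28.6, 19.0, and 2.37 kb upstream of Ccl2 have p65 in both libraries, and CRTC2 is listed at the first and the second.

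The printed sequences hold few of the motifs searched. Exact matches on both strands were sought in 200 bp around each locus midpoint for the CRE core TGACG, AP1 (TGACTCA or TGAGTCA), NF-κB (GGAAATTCCC or GGAATTTCCC), and C/EBP (TTGCGCAA or TTGCACAA), none of which overlapped another. Of the 25 loci, 2 held a CRE core, 2 AP1, 1 NF-κB, and 2 C/EBP, and 19 held none of them. The start site loci of Ccl2 and Ccl7 were among those without a match. Variants of these letters and sites outside the 200 bp were not searched there, so this does not show that their promoters lack such sites. Around single CRTC2 peaks, the CRE core was in 0 of the 5 in the control and 1 of the 8 under FSK. It was in 0 of the 10 under TNFα and 2 of the 10 under FSK/TNFα. Its shares of the whole lists, in that order, were 14.7%, 26.3%, 15.7%, and 25.2%, so with so few peaks these counts lie near them. C/EBP was in 0, 2, 0, and 1 of the same peaks, beside 0.655%, 1.75%, 0.589%, and 1.86%. The NF-κB match, on the reverse strand of the locus 2.37 kb upstream of Ccl2 (chr11:82033217-82033226), had its centre 1 bp from the p65 midpoint under TNFα and 46 bp from that under FSK/TNFα. The share of all p65 peaks with this motif was 2.20% under TNFα and 1.56% under FSK/TNFα, and it was in 0.155% of 32851 promoters of 300 bp.

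At 28.6 kb upstream of Ccl2 the C/EBP match TTGCACAA lay 1 bp from the p65 midpoint under FSK/TNFα, 40 bp from that under TNFα, and 18 to 23 bp from the CRTC2 midpoints. The CRE core lay 56 to 61 bp from the CRTC2 midpoints. C/EBP was in 1.86% and the CRE core in 25.2% of all CRTC2 peaks under FSK/TNFα, and in 1.19% and 20.8% of promoters. The wider NF-κB consensus, chosen after the data were seen, was found around 3 of the 4 p65 peaks of the window under TNFα and 2 of the 4 under FSK/TNFα, beside 13.4% and 9.97% of all p65 peaks. Its match at 19.0 kb lay within 100 bp of the p65 midpoint under TNFα and farther from the midpoint of the merged locus. It was in 0 of the 10 CRTC2 peaks under TNFα and 1 of the 10 under FSK/TNFα, beside 3.37% and 4.49%. AP1 was matched at the CRTC2 locus 23.6 kb upstream of Ccl2 and at the one in the Ccl8 intron, and was in 12.1% of all CRTC2 peaks under FSK, 5.30% under TNFα, 14.5% under FSK/TNFα, and 5.20% of promoters. Around single peaks of the window it was in 1 of the 8 CRTC2 peaks under FSK, 2 of the 10 under TNFα, and 0 of the 10 under FSK/TNFα, and in 1 of the 4 p65 peaks under FSK/TNFα, beside 8.81% of all p65 peaks. The match at that p65 peak was not met in the search around locus midpoints, and its place was not recorded. The other CRE core lay 3560 bp upstream of Ccl11, and the other C/EBP match 7.88 kb downstream of the Ccl1 start site. None of the 3 matched promoters (Ccl12, Ccl8, and Ccl1) held any of the 4 motifs.

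H3AcK27 was present over the start sites of Ccl2, Ccl7, and Ccl8 in every library and was not listed over those of Ccl11 and Ccl1 in any. A region covered the start site of 4 of 6 members in the control (Ccl2, Ccl7, Ccl12, and Ccl8), beside 49.5% of all genes, and of 3 of 6 under FSK (without Ccl12), beside 43.8%. It covered 4 of 6 under TNFα, beside 49.5%, and 3 of 6 under FSK/TNFα, beside 46.8%. These shares are near the background. The Ccl12 region was small, with 52.5 normalized tags over 1.63 kb in the control and 26.1 over 0.765 kb under TNFα. With FSK/TNFα a region of 14.8 over 0.501 kb lay 314 bp away. The nearest region edge to the Ccl11 start site was between 4107 and 5302 bp away. At Ccl1 a large region ended 1861 to 2809 bp downstream of the start site. Regions of the 4 lists that touched were merged into domains, which differ in extent between libraries, so the covered length stands beside each sum.

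Acetylation under TNFα was higher than in the control on the Ccl2 side of the cluster and within counting error of it at Ccl8 and next to Ccl1. The Ccl2 domain held 1124 normalized tags over 11.7 kb in the control, 798 over 9.40 kb under FSK, 1723 over 11.7 kb under TNFα, and 1504 over 11.6 kb under FSK/TNFα. Upstream of it, the domain that contains the p65 loci at 28.6 and 19.0 kb held 1775 over 25.9 kb, 1106 over 16.7 kb, 3123 over 28.5 kb, and 2422 over 28.7 kb. In tags per kb, the Ccl2 domain had 96.4, 84.9, 147, and 129, and the upstream domain 68.5, 66.3, 109, and 84.3. Both therefore had more tags per kb under TNFα and FSK/TNFα than in the control, with nearly the same covered length at Ccl2. The Ccl7 domain held 682, 513, 813, and 648 normalized tags over 6.63, 5.49, 6.92, and 5.76 kb, or 103, 93.4, 118, and 112 per kb.

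On the other side the levels did not follow TNFα. The Ccl8 domain held 1089, 730, 1139, and 846 normalized tags over 8.74, 5.74, 8.44, and 6.83 kb (125, 127, 135, and 124 per kb). The domain next to Ccl1 held 1481, 946, 1471, and 956 over 11.3, 10.3, 11.3, and 9.51 kb (131, 92.0, 131, and 101 per kb). The ratio of summed tags, TNFα to control, was 1.79 (1.72 to 1.86) and 1.61 (1.48 to 1.76) over the main parts of the upstream domain, 1.53 (1.47 to 1.60) at Ccl2, 1.19 (1.12 to 1.27) at Ccl7, 1.05 (0.995 to 1.10) at Ccl8, and 0.994 (0.951 to 1.04) next to Ccl1. The median over 39431 shared regions was 1.00, and the Ccl2 ratio was at percentile 87.1. Among these named domains the ratio was highest upstream of Ccl2 and lowest next to Ccl1. Smaller regions between Ccl7 and Ccl8 went both ways. The ratio was 0.436 (0.308 to 0.614) and 0.783 (0.711 to 0.863) just past Ccl11, and 0.497 (0.370 to 0.663) over the Ccl12 start site. Upstream of Ccl12 it was 1.35 (1.08 to 1.69), 0.778 (0.671 to 0.902), and 0.354 (0.229 to 0.537). The Ccl12 region was called over 0.765 kb under TNFα and 1.63 kb in the control. A ratio of at least 2 was found in 1 of the 20 shared regions of the window, beside 5.86% over the genome. It was a small region between Ccl12 and Ccl8 with 42.2 normalized tags under TNFα and a ratio of 3.52 (2.38 to 5.36).

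Just past Ccl11 less of the chromosome was covered by H3AcK27 under each treatment than in the control, while tags per kb differed in both directions. The region nearest to the Ccl11 start site held 41.7 normalized tags over 1.74 kb in the control, 25.4 over 0.788 kb under FSK, 18.2 over 0.933 kb under TNFα, and 9.72 over 0.635 kb under FSK/TNFα, or 23.9, 32.2, 19.5, and 15.3 per kb. The next domain held 342 over 5.47 kb, 43.7 over 0.760 kb, 268 over 3.39 kb, and 134 over 2.25 kb. Per covered kb it had 62.6, 57.5, 79.0, and 59.3 tags, so its lower sums came with shorter coverage, and under TNFα with more tags per kb. Further towards Ccl12, TNFα gave 0.949 (0.881 to 1.02) and 1.10 (0.940 to 1.29) of the summed control tags in the next 2 regions, and FSK gave 0.449 (0.389 to 0.516) and 0.433 (0.311 to 0.590). The first of these covered 4.66 kb in the control, 3.08 kb under FSK, and 4.87 kb under TNFα, and the next one 1.65, 1.15, and 2.68 kb.

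In the libraries with FSK the summed tags of shared regions were lower than in the control over the genome as a whole, with median ratios of 0.776 for FSK and 0.810 for FSK/TNFα. The sums run over regions that were called separately and were shorter in these libraries, so a ratio under 1 does not by itself mean fewer tags per kb. With FSK alone the ratio of sums was 0.710 (0.656 to 0.768) at Ccl2, 0.751 (0.680 to 0.829) at Ccl7, 0.670 (0.617 to 0.728) at Ccl8, and 0.639 (0.594 to 0.686) next to Ccl1. Per covered kb, FSK and control had 84.9 and 96.4 tags at Ccl2, 93.4 and 103 at Ccl7, 127 and 125 at Ccl8, and 92.0 and 131 next to Ccl1. At Ccl8 the lower sum thus came with shorter coverage and no lower density over the called length. The called lengths there were 5.74 kb under FSK and 8.74 kb in the control. These densities are therefore not over the same bases and do not show whether acetylation at Ccl8 was unchanged. None of the 14 shared regions of the window reached 2-fold under FSK, beside 4.91% over the genome. With FSK/TNFα the ratio of sums was 1.34 (1.28 to 1.40) at Ccl2, 0.950 (0.889 to 1.02) at Ccl7, 0.777 (0.735 to 0.821) at Ccl8, and 0.646 (0.614 to 0.679) next to Ccl1. Relative to the median these were 1.65, 1.17, 0.959, and 0.797, so the ratio at Ccl7 lay below 1 as measured and above 1 after scaling. Per covered kb, FSK/TNFα and control had 129 and 96.4 tags at Ccl2, 112 and 103 at Ccl7, 124 and 125 at Ccl8, and 101 and 131 next to Ccl1. None of the 15 shared regions reached 2-fold under FSK/TNFα, beside 4.52%. The FSK libraries also had another input, and the part of the input, of library depth, and of called length in these ratios was not tested.

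**Figure D4:**
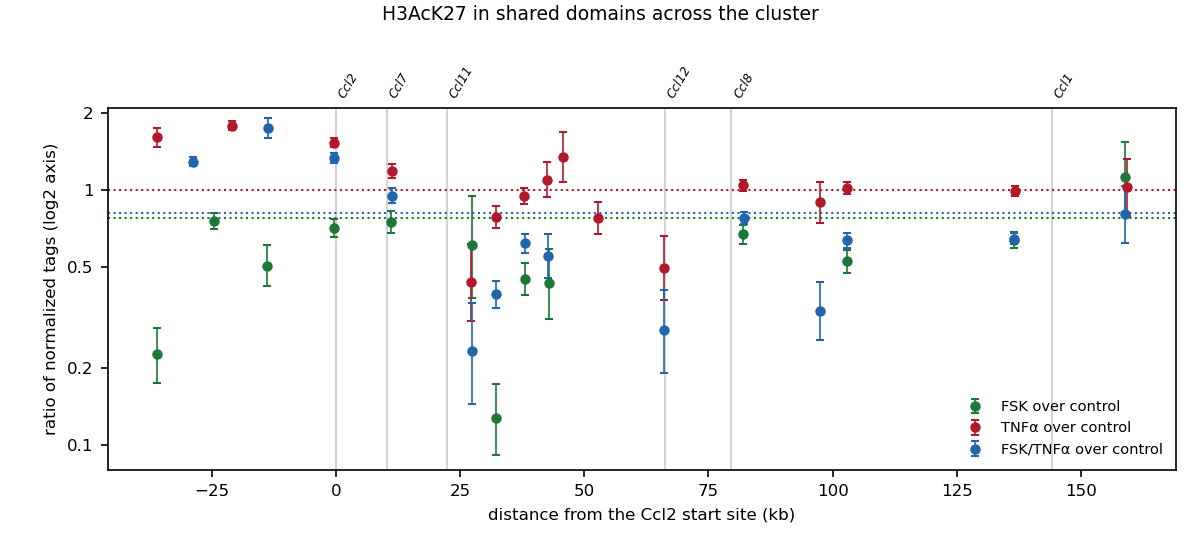
Ratio of H3AcK27 normalized tags to control (log2 axis) for each region of the window shared with control and holding at least 40 normalized tags there, by distance from the Ccl2 start site (kb). Points are regions, error bars are 95% exact intervals of the ratio, dotted lines are medians over all shared regions (sums of tags over the called length, 0.776 under FSK, 1.00 under TNFα, 0.810 under FSK/TNFα), and grey lines are member start sites. The TNFα points reach 1.79 upstream of Ccl2 and lie at 0.497 over the Ccl12 start site and at 1.05 at Ccl8.

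Most factor peaks of the cluster lay inside H3AcK27. Of the 25 loci, 21 lay in a region in all 4 H3AcK27 lists and 3 in none. All 4 p65 peaks under TNFα and all 4 under FSK/TNFα lay in a region of the same treatment, beside 39.6% and 31.8% of p65 peaks over the genome. For CRTC2 it was 3 of 5 peaks in the control, 8 of 8 under FSK, 10 of 10 under TNFα, and 9 of 10 under FSK/TNFα, beside 59.6%, 84.1%, 74.5%, and 82.6%. H3AcK27 covered 39.2% of the window under TNFα and 33.7% under FSK/TNFα, beside 4.05% and 3.04% of the genome. A peak anywhere in the window would thus meet a region more often than one elsewhere. Of the p65 loci, 3 were counted in both libraries with TNFα. The loci upstream of Ccl2 were acetylated in the control and under FSK, where no p65 was listed.

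Other CC chemokines and their receptors are given by count. Of 13 other CC ligand genes, a CRTC2 midpoint lay within 5 kb of 0 in the control and of 3 in each treated library, Ccl5, Ccl9, and Ccl25 under FSK or TNFα and Ccl9, Ccl17, and Ccl25 under FSK/TNFα, beside 14.8%, 32.7%, 45.9%, and 34.9% of all genes in the 4 lists. Their peaks held between 9.13 and 25.3 normalized tags, below those at the Ccl2 and Ccl7 start sites in the same library. p65 was listed near 1 of the 13 under FSK, Ccl9 (14.0), beside 2.73% of all genes, and near 1 under FSK/TNFα, Ccl17, a ligand of CCR4 (28.8, 21.9 to 37.1), beside 3.65%. Of 13 receptor genes, only Ccr10 had CRTC2, in the control (12.2), under TNFα (21.2), and under FSK/TNFα (9.75), and only Ccr9 had p65, under FSK (16.0). Ccr2, the receptor of CCL2, had neither. In the CXC cluster, Cxcl1 and Cxcl5 had p65 within 5 kb in both TNFα libraries, at 23.8 and 19.0 normalized tags under TNFα, beside 32.7 at the locus 2.37 kb upstream of Ccl2.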

How the data were processed

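The lists hold ChIP-seq peaks of CRTC2, p65, and H3AcK27 in 3T3-L1 cells, 1 library for each antibody and treatment and 12 in all, grouped by the sample labels. The 2 input libraries were used only as background values carried in the lists. Per the submitters' processing notes the authors used STAR, HOMER, and mm10, with versions not given in the sources used here. The deposited signal is a tag number per 10000000 tags of the library. The deposited fold values are ratios to the input and to the surrounding 10 kb, the deposited p-value compares tags with the input, and the deposited score, whose scale between libraries the headers do not give, served for ranks, with ties ordered by normalized tags. In 6 lists the tag totals are scaled to the input, so tags were recomputed from the normalized value and the library total.

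Genes are those with protein-coding transcripts in GENCODE mouse release M21, and sequences come from RefSeq GRCm38.p6, the same build. Poisson intervals were used for tags and exact conditional intervals for ratios, both at 95%. Tags repeated at 1 position do not count as separate observations, so the intervals are too narrow by an unknown amount. An overlap of 1 bp made peaks shared, a ratio used the strongest overlapping peak for CRTC2 and p65 and merged regions for H3AcK27, and a called ratio was 2-fold or more. All 6 members were named with their values. Other CC ligands and receptors were named where a peak was listed, and genes like Ccl2 were the 5 nearest by log2 ratio. The members and gene lists were chosen with earlier results of these data known. Alternatives covered an 8-fold limit over input, flanks of 20000 bp, lists of equal size, other distances to the start site, scaling to the median ratio, subtracted input, score, overlap rules, and motif windows. A wider NF-κB consensus was added after the data were seen. The overlap, merging, and interval code was tested on simulated data. Python 3.11.15, numpy 2.4.6, scipy 1.17.1, and matplotlib 3.10.9 did the computing. Reads were not analysed here.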

Additional observations from a re-analysis of the deposited data

How the results depend on the processing

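Of 111 recomputed values, 85 stayed within the limits set and 26 moved, among them 3 ratios that crossed 1, none of which had been 2-fold or more. An 8-fold limit over input left 5 CRTC2 peaks of the window with FSK, and 10, 4, 11, and 8 H3AcK27 regions (control, FSK, TNFα, FSK/TNFα), with 19.9 kb covered with FSK. Best-scored lists of equal length left 4 CRTC2 peaks with FSK and 6 with TNFα, and 2 p65 peaks with FSK/TNFα. A distance of 10 kb gave 5 members with CRTC2 with FSK, and a promoter limit of 1000 bp upstream to 100 bp downstream gave 0 members with p65 in both TNFα libraries. With the median ratio set to 1, CRTC2 ratios to control at Ccl2 were 0.917 (FSK), 1.18 (TNFα), and 0.879 (FSK/TNFα), those at Ccl7 were 1.66, 2.12, and 1.82, and H3AcK27 ratios were 0.915 and 1.65 at Ccl2 and 0.968 and 1.17 at Ccl7 (FSK and FSK/TNFα). The directions of CRTC2 at Ccl2 with FSK and FSK/TNFα and of H3AcK27 at Ccl7 with FSK/TNFα (0.950 as measured) thus depend on the scaling. By score, the CRTC2 ratios with FSK/TNFα were 2.41 at Ccl2 and 4.30 at Ccl7. A window of 400 bp gave 4 loci with the CRE core, and the wider NF-κB consensus gave 2 loci. The cause of these shifts was not tested. No paired analysis was possible because each group had 1 library. The depth of the H3AcK27 library with FSK limits which weak regions could be listed.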
